A study of Mus musculus with 6 samples.

Results

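Mitochondrial ribosomal proteins are the nuclear-encoded proteins of the ribosome that works inside mitochondria. They were taken here as the protein-coding genes whose GENCODE M21 symbol is Mrpl or Mrps, a number and at most the letter a, b or c, which gave 78 genes of the 56689 identifiers listed per library. By symbol, 49 belong to the large subunit (Mrpl) and 29 to the small subunit (Mrps). RNA was sequenced from C57BL/6 mouse embryonic stem cells, pluripotent cells of the early embryo, in 3 libraries labelled Max-KO (genotype Max-/-) and 3 libraries of wild-type cells (WT). Max is the partner protein through which MYC proteins bind DNA. How Max was removed, whether the Max-KO cells are 1 clone and whether the libraries of a group came from separate cultures are not given in the sources used here. The p-values therefore speak only of the spread among these 6 libraries.

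The mitochondrial ribosome is made of RNAs transcribed from the mitochondrial genome and of proteins that are translated in the cytosol and imported. It translates the mitochondrial messenger RNAs, which encode membrane subunits of the respiratory chain and of the ATP synthase. Its large subunit joins amino acids and its small subunit reads the messenger RNA. Many of its proteins have a bacterial homolog, and many others are found in the mitochondrial ribosome and not in the bacterial one.

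The libraries had an estimated 20.8 to 28.4 M fragments, and 14661 genes with a group mean of at least 1 FPKM (fragments scaled to transcript length and library depth) were tested. Max itself was at 35.8, 39.6 and 43.4 FPKM in Max-KO and 41.6, 50.2 and 42.3 FPKM in WT. These groups overlapped (log2 difference −0.17, limma adjusted p = 0.168), so the gene-level value does not check the genotype labels. Embryonic stem cell markers (Pou5f1, Nanog, Sox2, Zfp42 and Esrrb) were all present, with a summed level of 1803 to 1903 FPKM in Max-KO and 1508 to 1580 FPKM in WT. Summed markers of other cells differed between the groups: germ cell (Dazl and Ddx4) 519 to 546 against 8.8 to 11.6 FPKM, neural (4 genes) 61.1 to 66.2 against 119 to 137 FPKM, trophoblast (4 genes) 8.97 to 13.5 against 2.6 to 3.47 FPKM, and primitive endoderm (4 genes) 2.67 to 5.47 against 0.48 to 0.92 FPKM, in Max-KO against WT each time. The neural sum was nearly all Tubb3 (57.6 to 62.0 against 109 to 127 FPKM). Pax6 (means of 1.8 against 5.74 FPKM) and Neurod1 (1.04 against 3.98 FPKM) of that list were lower as well. Sox1 of that list was at 0.46 to 0.75 FPKM in Max-KO and 0.16 to 0.18 FPKM in WT and was below the level tested. Fibroblast markers (5 genes) summed to 7.64 to 9.9 FPKM in Max-KO and 7.67 to 8.05 FPKM in WT. None of these markers was at 0 in any library. Their part in the results was not tested, and in bulk RNA fewer cells of a type and less RNA per cell cannot be told apart.

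Most mitochondrial ribosomal protein genes were lower in Max-KO, by small amounts. All 78 passed the filter, and 49 were called lower and 2 higher (Mrps14 and Mrps25) at a limma adjusted p under 0.05, while 27 were not called. Of all genes tested, 23.2% were called lower and 43.0% higher, 66.2% in either direction. Among protein-coding genes tested, 25.2% were lower and 42.1% higher. The members' log2 differences ran from −1.27 (Mrpl12) to 0.39 (Mrps14) with a median of −0.34, against a median of 0.21 over all genes tested. Of the 78, 75 lay below that all-gene median. Only Mrpl12 was lower by 2-fold or more, where 4.86% of all genes tested were called that far down. A further 24 members were lower by 0.5 to 1 on the log2 scale and 24 by less than 0.5.

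The 3 Max-KO values lay below all 3 WT values in 53 of 78 members and above them in 5, and the groups overlapped in 20. Over all genes tested, 25.7% had every Max-KO value below WT and 46.3% had every Max-KO value above it. The direction calls depended on how libraries were scaled to each other. With each library rescaled to the same sum (TPM, transcripts per 1 M), 34 members were lower and 16 higher, against 16.1% and 53.8% of all genes. With median-ratio scaling, 63 were lower and none higher, against 33.9% and 30.7%. A correction for GC content and transcript length gave 37 lower and 7 higher, against 22.4% and 43.1%. Relative to the all-gene median, the members' median was −0.55 as reported and −0.34 to −0.59 under the other scalings, filters and pseudocount and the GC and length correction. A total of 27 of the 49 lower members were lower under every setting, 15 of the large and 12 of the small subunit.

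**Figure D1:**
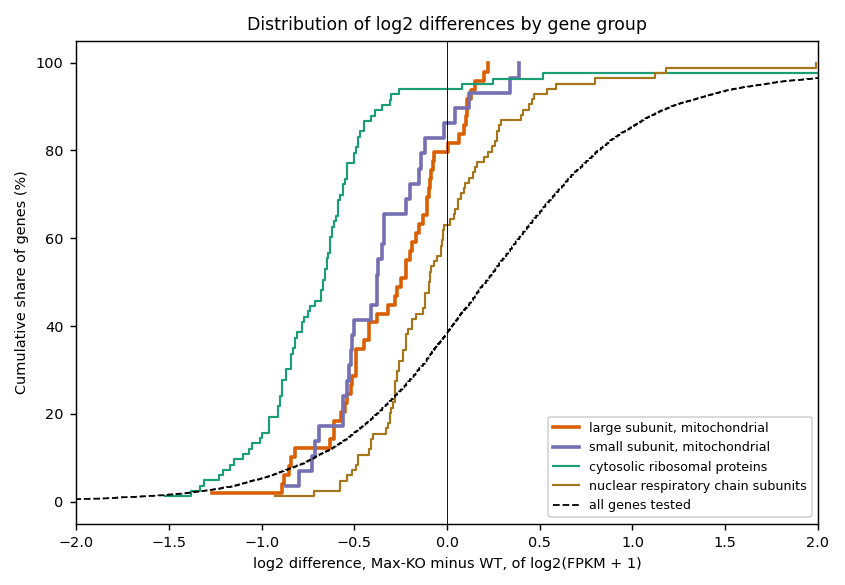
Cumulative share of genes (y axis, %) by log2 difference, Max-KO minus WT, of log2(FPKM + 1) (x axis), for large and small mitochondrial subunit genes, cytosolic ribosomal proteins, nuclear respiratory chain subunits and all 14661 genes tested. Both mitochondrial subunits (medians −0.25 and −0.38) lie between the cytosolic ribosomal proteins (−0.67) and the respiratory chain (−0.094), and all genes tested lie to the right (0.21). With quantile normalization, which is not drawn, the cytosolic median was −0.13 and lay above that of the mitochondrial genes (−0.36). That setting limits the difference that the most abundant genes, such as the cytosolic ones, can show.

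The promoters of 4 members are printed here because these genes carry the contrasts described below: Mrpl12 fell most, Mrps18b and Mrps18c are paralogs with unlike values, and Mrpl36 fell furthest among members with the letters that MYC-MAX dimers are known to bind. The windows are those of RefSeq on build GRCm38.p6, 250 bases before to 50 bases after the annotated start, written in the direction of the gene. RefSeq and GENCODE place some of these starts differently. Capitals mark the letters CACGTG (an E-box), GCATGCGC (the core of the site of NRF1, a regulator of nuclear genes for mitochondrial proteins) or ACTTCCGG (the reverse of the ETS letters CCGGAAGT). Mrpl12 (chr11:120484387-120484686, plus strand) holds none of them. Mrpl36 (chr13:73330759-73331058, plus strand) holds 1 E-box 43 bases before the start. By GENCODE this gene runs from 73328513 to 73332178, so the whole window lies inside it. Mrps18b (chr17:35916391-35916690, minus strand) holds the NRF1 letters 223 bases before the RefSeq start and again after it. By GENCODE, Mrps18b starts at 35916389, outside this window, and the gene Ppp1r10, on the other strand, starts at 35916434, inside it. Most of the window, with the first of these matches, therefore lies within Ppp1r10. Mrps18c (chr5:100798509-100798808, plus strand) holds an E-box 163 bases before the start, directly followed by the ETS letters.
Mrpl12: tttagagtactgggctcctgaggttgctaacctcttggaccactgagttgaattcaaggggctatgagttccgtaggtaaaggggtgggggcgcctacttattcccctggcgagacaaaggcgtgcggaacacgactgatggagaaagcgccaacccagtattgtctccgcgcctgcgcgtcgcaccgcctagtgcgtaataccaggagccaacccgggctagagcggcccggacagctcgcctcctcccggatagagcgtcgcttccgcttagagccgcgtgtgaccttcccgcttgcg
Mrpl36: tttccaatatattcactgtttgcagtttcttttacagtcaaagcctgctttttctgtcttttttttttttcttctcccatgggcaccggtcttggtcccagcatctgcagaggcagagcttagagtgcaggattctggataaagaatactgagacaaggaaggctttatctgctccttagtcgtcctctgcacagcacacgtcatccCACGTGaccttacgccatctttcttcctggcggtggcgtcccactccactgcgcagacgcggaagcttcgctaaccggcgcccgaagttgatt
Mrps18b: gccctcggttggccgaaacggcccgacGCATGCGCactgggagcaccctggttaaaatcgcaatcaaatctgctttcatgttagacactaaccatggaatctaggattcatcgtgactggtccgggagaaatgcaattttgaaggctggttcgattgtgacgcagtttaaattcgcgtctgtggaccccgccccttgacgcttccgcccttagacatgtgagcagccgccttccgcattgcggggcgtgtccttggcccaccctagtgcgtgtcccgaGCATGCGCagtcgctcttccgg
Mrps18c: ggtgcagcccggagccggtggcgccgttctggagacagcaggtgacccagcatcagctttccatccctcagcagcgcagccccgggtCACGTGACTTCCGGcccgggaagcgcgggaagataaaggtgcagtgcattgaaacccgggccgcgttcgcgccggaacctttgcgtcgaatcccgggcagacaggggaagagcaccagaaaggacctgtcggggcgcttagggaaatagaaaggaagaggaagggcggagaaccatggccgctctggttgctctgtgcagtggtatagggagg

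The E-box was found in the promoters of 5 of the 69 members that the RefSeq table holds (7.25%), against 11.9% of 9957 tested protein-coding genes and 8.09% of all 27025 promoters in the table, both strands searched. Mrpl2, Mrpl20, Mrpl36 and Mrpl37 of these were lower and Mrps18c was not called. With the GC and length correction Mrpl2, Mrpl20 and Mrpl37 were not called (log2 differences −0.065, −0.12 and −0.11), and after rescaling to TPM Mrpl20 and Mrpl37 were not. Of the members without the letters, 38 of 64 were lower. Among tested protein-coding genes, 29.0% of those with the letters and 25.0% of those without were called lower. The NRF1 letters stood in 8 of 69 members (11.6%), against 6.33% of tested protein-coding genes and 3.05% of all promoters. Of these 8 members 5 were lower (Mrpl9, Mrpl10, Mrpl17, Mrpl22 and Mrps18b), and of the members without the NRF1 letters 37 of 61 were. Among tested protein-coding genes, 24.7% of those with the NRF1 letters and 25.5% of those without were called lower. The ETS letters stood in 12 of 69 members (17.4%), against 9.25% and 4.31%. Among members with the ETS letters 5 of 12 were lower (median log2 difference −0.033), and among those without them 37 of 57 were (median −0.35). In the large subunit 2 of 8 with and 22 of 35 without these letters were lower, and in the small subunit 3 of 4 and 15 of 22. Among tested protein-coding genes, 23.6% of those with the ETS letters and 25.7% of those without were called lower. These shares are a description without a test, and a match of letters is not a bound site. The NRF1 and ETS letters were added after the members' values had been seen.

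In the large subunit, 28 of 49 genes were called lower, none higher and 21 were not called. The median log2 difference was −0.25. Mrpl12 (ENSMUSG00000039640; chromosome 11, 120484613 to 120489065, plus strand, GRCm38) encodes the stalk protein that recruits translation factors to the ribosome. It was at 50.2, 53.6 and 47.7 FPKM in Max-KO and 112, 122 and 137 FPKM in WT. The groups stood well apart, at 50.5 ± 2.93 FPKM in Max-KO and 123 ± 12.4 FPKM in WT (SD, n = 3 each), a log2 difference of −1.27 ± 0.084 (SE; limma adjusted p = 2.39e-05). Its partners at the stalk base were chosen for naming after their values were seen. Mrpl10, the protein that holds the stalk, was at 45.9 FPKM in Max-KO and 64.8 FPKM in WT (log2 difference −0.49, limma adjusted p = 0.000199). Mrpl11 was at 68.2 FPKM in Max-KO and 73.7 FPKM in WT (log2 difference −0.11, limma adjusted p = 0.21), so the proteins of 1 structural element differed in their values. Whether their differences differ from each other was not tested.

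Other large subunit genes with low differences encode homologs of bacterial proteins or mitochondria-specific proteins. The homologs come first. Mrpl30 was at 39.2, 40.9 and 39.6 FPKM in Max-KO and 71.2, 73.2 and 79.3 FPKM in WT (log2 difference −0.89). Mrpl34 was at 37.8, 40.8 and 41.5 FPKM in Max-KO and 73.4, 70.3 and 74.7 FPKM in WT (log2 difference −0.85). Mrpl15 was at 59.6, 67.2 and 64.0 FPKM in Max-KO and 113, 107 and 124 FPKM in WT (log2 difference −0.84). In all 3 genes every Max-KO library lay below every WT library, with no overlap. Mrpl36, homolog of the smallest bacterial large subunit protein, was at 30.5 FPKM in Max-KO and 46.8 FPKM in WT (log2 difference −0.61). Among mitochondria-specific proteins, named after their values were seen, Mrpl38 was at 49.6, 52.9 and 50.5 FPKM in Max-KO and 87.6, 86.0 and 98.6 FPKM in WT (log2 difference −0.82). Mrpl54 was at 48.2, 41.2 and 45.9 FPKM in Max-KO and 59.7, 70.5 and 79.0 FPKM in WT (log2 difference −0.61) and was not called with the GC and length correction (−0.19). Mrpl12, Mrpl30, Mrpl34, Mrpl15, Mrpl38 and Mrpl36 were lower under every setting tried.

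Mrpl23 (ENSMUSG00000037772; chromosome 7, 142532686 to 142540747, plus strand), homolog of a bacterial protein at the exit of the peptide tunnel, held the lowest value of any member in any library. It was at 10.1, 5.44 and 7.1 FPKM in Max-KO and 15.1, 17.2 and 11.2 FPKM in WT (log2 difference −0.88 ± 0.23 SE, limma adjusted p = 0.0122). The groups did not overlap, but the closest libraries were near each other. Its pseudogene Mrpl23-ps1 (chromosome 2, 74591330 to 74591909) was listed at 52.8, 48.9 and 64.4 FPKM in Max-KO and 68.9, 65.6 and 74.4 FPKM in WT (log2 difference −0.33, limma adjusted p = 0.0267, and 0.059 to 0.0838 without Max-KO 1, Max-KO 2, WT 1 or WT 3). The counting could have split reads between the gene and this copy, so the level of Mrpl23 is uncertain. The pair summed to 62.9 FPKM in Max-KO and 84.1 FPKM in WT, a ratio of 0.747. With the correction for GC content and length, Mrpl23 was not called (log2 difference −0.63, limma adjusted p = 0.0555).

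The 3 most abundant large subunit genes were all called lower. Mrpl52, a mitochondria-specific protein and the highest member in level, was at 191, 204 and 188 FPKM in Max-KO and 213, 215 and 231 FPKM in WT (log2 difference −0.17, limma adjusted p = 0.0322). Its call was lost without Max-KO 1, Max-KO 3 or WT 2 (limma adjusted p of 0.0572 to 0.0983), and with the GC and length correction it was called higher (0.19). Mrpl42 was at 136, 126 and 136 FPKM in Max-KO and 183, 187 and 193 FPKM in WT (log2 difference −0.49). Mrpl17, homolog of a bacterial protein, was at 108, 107 and 104 FPKM in Max-KO and 151, 140 and 170 FPKM in WT (log2 difference −0.52). Both were lower under every setting tried, with no overlap between groups.

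Genes with a role beyond ribosome structure had differences of unlike size. Mrpl44, which carries a ribonuclease-like fold, was at 28.9, 28.7 and 27.2 FPKM in Max-KO and 31.0, 31.8 and 34.6 FPKM in WT (log2 difference −0.19, limma adjusted p = 0.0332). This call was lost when any library but WT 1 was left out (limma adjusted p of 0.0564 to 0.0916). Mrpl58, a peptide release factor that rescues stalled ribosomes and is also built into the large subunit, was at 62.3, 62.8 and 60.5 FPKM in Max-KO and 66.3, 64.3 and 65.1 FPKM in WT. It was not called (log2 difference −0.076, limma adjusted p = 0.193), but was called lower with median-ratio scaling (−0.33) and higher with TPM (0.14) and with the GC and length correction (0.19). Mrpl55 is named for its unsteady call and not for a role beyond ribosome structure. Its call (log2 difference −0.25, limma adjusted p = 0.0468) was lost when any library but WT 2 was left out (limma adjusted p of 0.053 to 0.13). Mrpl45, which binds the ribosome to the inner membrane, was at 57.3 FPKM in Max-KO and 81.9 FPKM in WT (log2 difference −0.51, limma adjusted p = 0.00125) and was named after its values were seen. The 21 large subunit genes not called ran from −0.28 (Mrpl32) to 0.22 (Mrpl35).

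**Figure D2:**
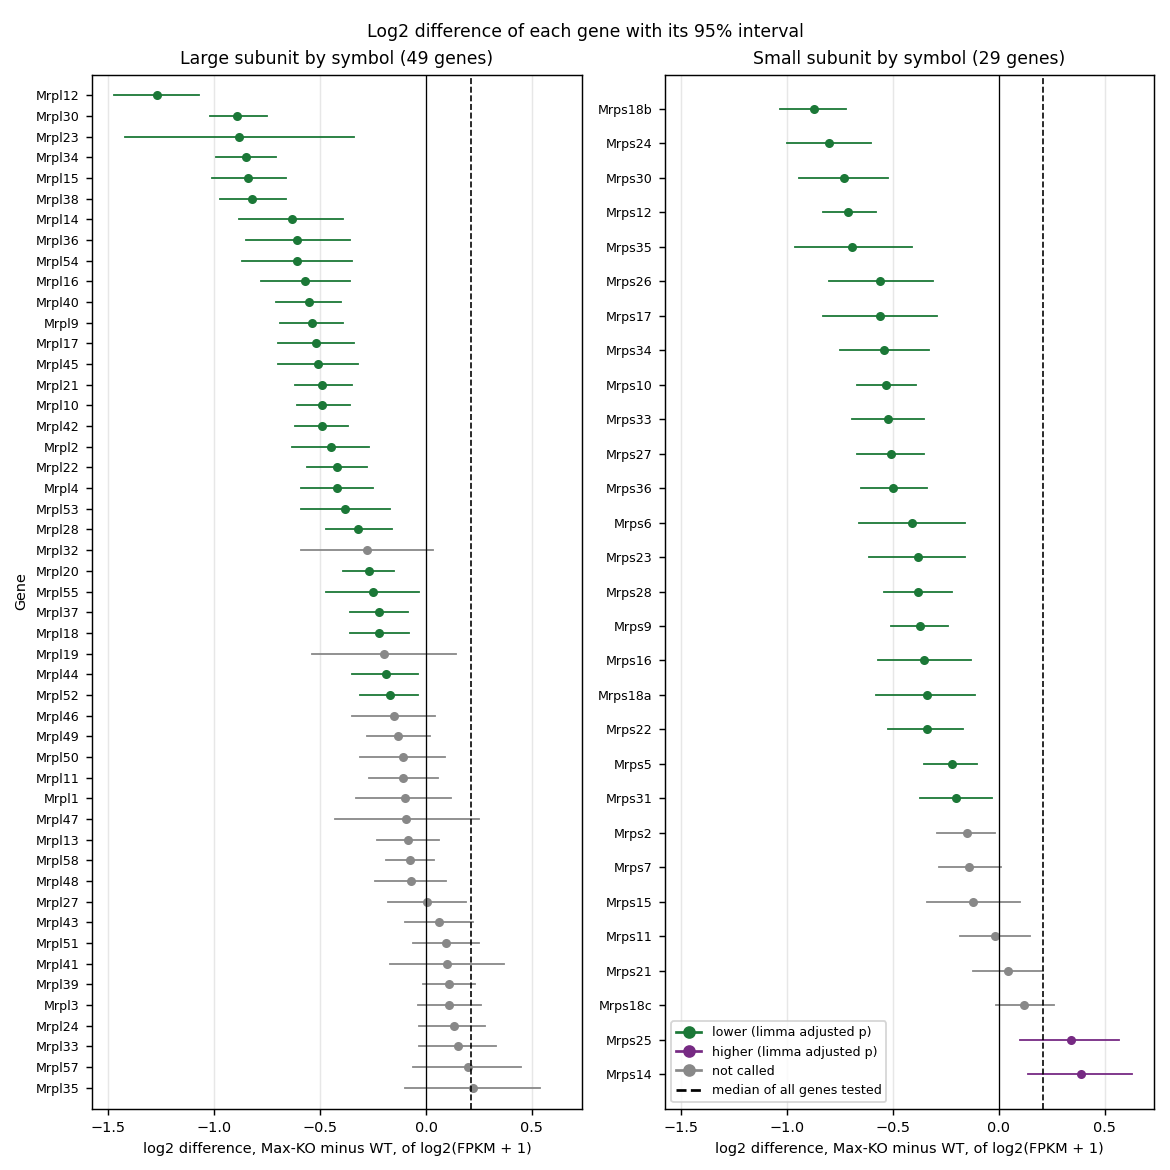
Log2 difference (Max-KO minus WT, of log2(FPKM + 1)) of each gene with its 95% interval, large subunit left and small subunit right, coloured by call, with a dashed line at the median of all genes tested (0.21). Mrpl12 lies lowest at −1.27, and Mrps25 and Mrps14 lie highest at 0.34 and 0.39.

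In the small subunit, 21 of 29 genes were called lower, 2 higher and 6 were not called, with a median log2 difference of −0.38. Mrps24, homolog of a bacterial protein at the entry of the messenger RNA, was at 68.7, 63.7 and 71.8 FPKM in Max-KO and 119, 107 and 132 FPKM in WT (log2 difference −0.80 ± 0.086 SE, limma adjusted p = 0.000195). Mrps12, homolog of the bacterial protein at the decoding centre, was at 51.1, 53.5 and 49.7 FPKM in Max-KO and 81.5, 86.5 and 85.6 FPKM in WT (log2 difference −0.71). Mrps35, a mitochondria-specific protein, was at 20.5, 24.6 and 22.4 FPKM in Max-KO and 37.0, 31.5 and 42.3 FPKM in WT (log2 difference −0.69). None of these genes overlapped between groups, and each was lower under every setting tried.

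The most abundant small subunit genes included 1 that was not called. Mrps23, a mitochondria-specific protein, was at 92.6, 78.8 and 75.7 FPKM in Max-KO and 114, 96.9 and 112 FPKM in WT (log2 difference −0.38). Mrps5, homolog of a bacterial protein, was at 90.4, 89.3 and 84.3 FPKM in Max-KO and 105, 100.4 and 103 FPKM in WT (log2 difference −0.22). Mrps21, homolog of a small bacterial protein, was at 90.2, 100.1 and 108.0 FPKM in Max-KO and 95.3, 95.8 and 97.5 FPKM in WT, and its groups overlapped (log2 difference 0.043, limma adjusted p = 0.61). Rescaled to TPM, Mrps21 was called higher (log2 difference 0.26) and Mrps5 and Mrps23 were not called (log2 differences −0.013 and −0.17). Mrps31 (log2 difference −0.20, limma adjusted p = 0.0407) lost its call without Max-KO 1, Max-KO 3, WT 1 or WT 2 (limma adjusted p of 0.0959 to 0.122).

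Mrps14 and Mrps25 were the members that rose. Mrps14 (ENSMUSG00000058267; chromosome 1, 160195215 to 160202170, plus strand), homolog of a bacterial small subunit protein, was at 69.8, 62.0 and 59.2 FPKM in Max-KO and 47.9, 42.8 and 54.9 FPKM in WT. The log2 difference was 0.39 ± 0.10 (SE, limma adjusted p = 0.0133). Every Max-KO library lay above every WT library, though Max-KO 3 and WT 3 were close. Mrps25 (ENSMUSG00000014551; chromosome 6, 92169525 to 92184033, minus strand), a mitochondria-specific protein, was at 30.6, 32.1 and 26.6 FPKM in Max-KO and 22.9, 21.3 and 25.8 FPKM in WT (log2 difference 0.34 ± 0.099 SE, limma adjusted p = 0.0196). Mrps14 kept its call with each library left out. Mrps25 lost it without Max-KO 1, Max-KO 2, WT 1 or WT 2 (limma adjusted p of 0.0555 to 0.069). With median-ratio scaling neither was called (log2 differences 0.14 and 0.09), nor with the GC and length correction (0.25 and 0.20).

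The genes Mrps18a, Mrps18b and Mrps18c are paralogs that each relate to 1 bacterial protein and hold different places in the mitochondrial ribosome. Mrps18b (ENSMUSG00000024436; chromosome 17, 35910379 to 35916389, minus strand) was at 65.9, 58.9 and 64.3 FPKM in Max-KO and 113, 112 and 123 FPKM in WT (log2 difference −0.87 ± 0.065 SE, limma adjusted p = 4.05e-05). Mrps18a (chromosome 17, 46110986 to 46128910, plus strand), whose protein sits in the large subunit, was at 38.0, 36.1 and 42.6 FPKM in Max-KO and 46.8, 46.1 and 56.3 FPKM in WT (log2 difference −0.34, limma adjusted p = 0.0173). That call was lost without Max-KO 1 or Max-KO 2 (limma adjusted p of 0.0534 and 0.0617), after rescaling to TPM (log2 difference −0.14) and with the GC and length correction (−0.057). Mrps18c (chromosome 5, 100798627 to 100804471, plus strand), the paralog at the place of the bacterial protein, was at 82.2, 83.6 and 74.8 FPKM in Max-KO and 73.2, 73.6 and 73.6 FPKM in WT. It was not called (log2 difference 0.12, limma adjusted p = 0.096), while without Max-KO 3 it was called higher (log2 difference 0.17, limma adjusted p = 0.0293), as it was after rescaling to TPM (0.34) and quantile normalization (0.17). The intervals of Mrps18b and Mrps18c lay apart, and the difference between the 2 genes was not tested.

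Mrps30, whose protein sits in the large subunit despite its symbol, was at 14.2, 15.6 and 15.4 FPKM in Max-KO and 24.3, 24.1 and 28.7 FPKM in WT (log2 difference −0.73). Mrps36, whose protein is known as part of the 2-oxoglutarate dehydrogenase complex rather than of the ribosome, was at 32.4, 35.8 and 36.9 FPKM in Max-KO and 49.1, 49.3 and 51.0 FPKM in WT (log2 difference −0.50). With Mrps18a and Mrps30 counted in the large subunit and Mrps36 in neither, 30 of 51 large subunit genes were lower and none higher, and 18 of 26 small subunit genes were lower and 2 higher. The medians were then −0.27 and −0.38.

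**Figure D3:**
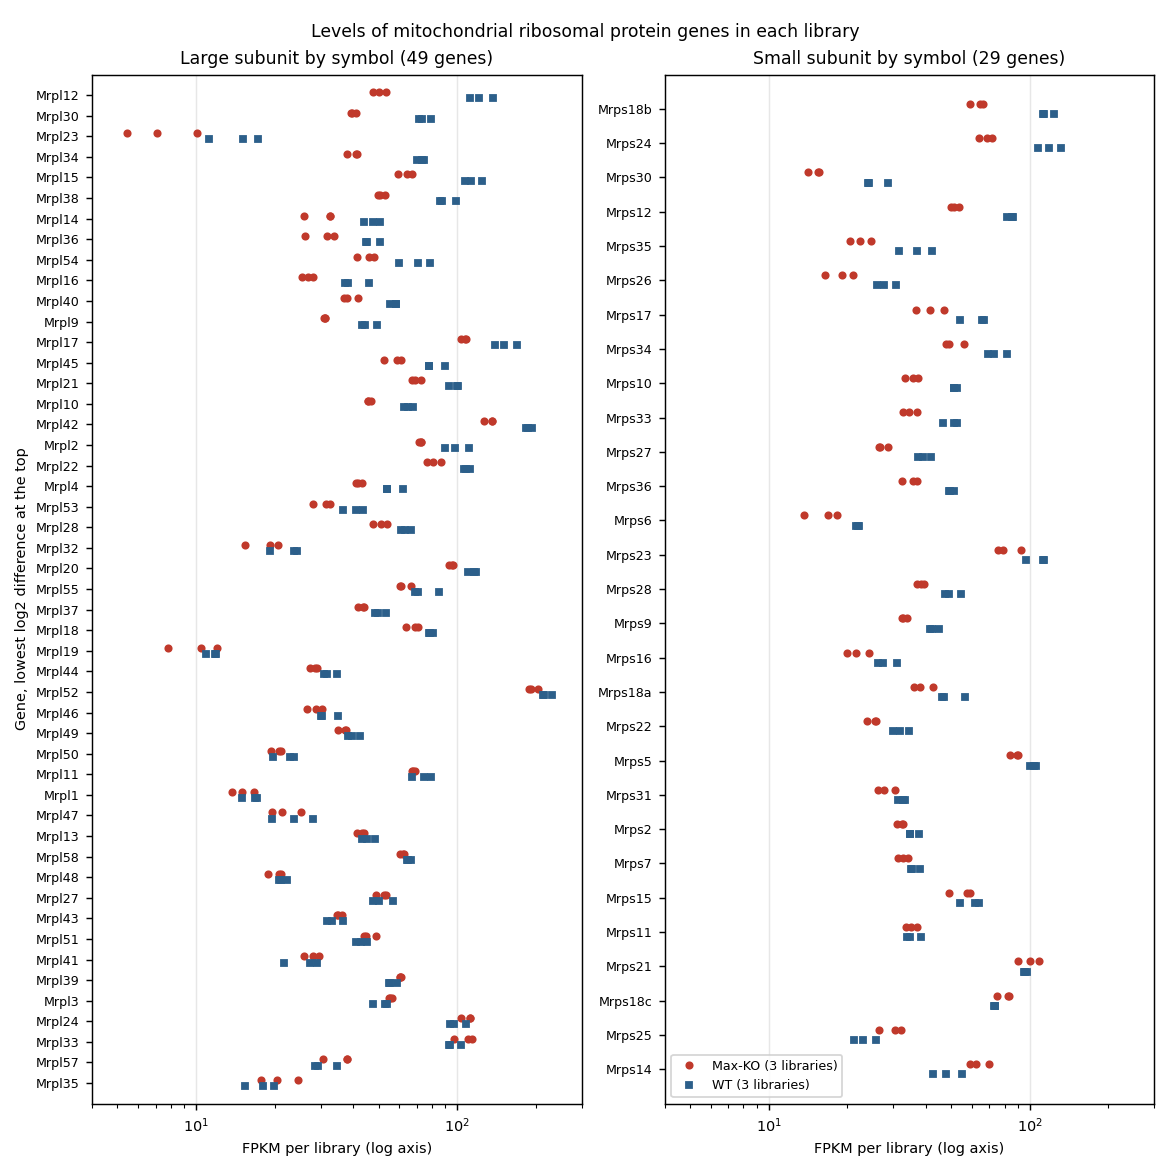
FPKM (log axis) of all 78 genes in each of the 3 Max-KO (circles) and 3 WT (squares) libraries, ordered from the lowest log2 difference at the top, large subunit left and small subunit right. The groups lie apart for Mrpl12 and Mrps18b at the top, and Max-KO lies above WT for Mrps25 and Mrps14 at the bottom right.

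The levels of the large and the small subunit were compared within each library as a description, with no test. The mean level of large subunit genes over that of small subunit genes was 1.18, 1.2 and 1.17 in Max-KO and 1.15, 1.2 and 1.18 in WT. These ratios overlapped, at 1.18 ± 0.0153 in Max-KO and 1.18 ± 0.0252 in WT (SD, n = 3 each). The median large subunit gene was at 43.7, 41.7 and 44.0 FPKM in Max-KO and 53.8, 53.7 and 58.4 FPKM in WT. The median small subunit gene was at 35.8, 35.8 and 36.9 FPKM in Max-KO and 47.9, 46.0 and 51.2 FPKM in WT. Both medians were lower in every Max-KO library than in every WT library. The ratio of these medians was 1.22, 1.16 and 1.19 in Max-KO and 1.12, 1.17 and 1.14 in WT, or 1.19 ± 0.03 in Max-KO and 1.14 ± 0.0252 in WT (SD, n = 3 each). The share of genes called lower, 57.1% in the large and 72.4% in the small subunit, was not tested between the subunits.

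All 78 genes together took 0.591%, 0.581% and 0.574% of the summed FPKM of the Max-KO libraries and 0.635%, 0.623% and 0.654% of that of the WT libraries. The groups did not overlap. The summed FPKM of a whole library was 645169 to 658361 in Max-KO and 743406 to 774405 in WT, and this difference is what the rescaling to TPM removes. The order of the members by level was close in both groups (Spearman rho 0.918 across 78 genes, which share the same libraries). Across members the log2 difference had a Spearman rho of −0.295 with the WT level, 0.13 with transcript length and −0.232 with GC content. These are correlations across genes of the same libraries, and genes are not independent replicates.

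**Figure D4:**
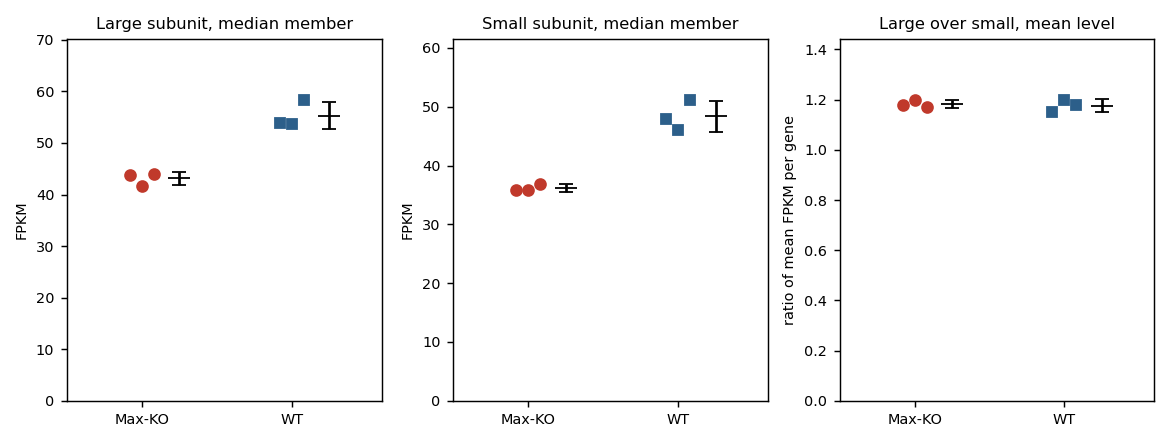
FPKM of the median large subunit gene (left) and the median small subunit gene (middle), and the ratio of mean large to mean small subunit level (right), in each Max-KO and WT library, with the mean and SD of 3 libraries beside the points. Both medians are lower in all 3 Max-KO libraries, while the ratios overlap (1.17 to 1.2 in Max-KO and 1.15 to 1.2 in WT).

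Genes with a bacterial homolog and mitochondria-specific genes both held mostly lower members. Mrps18a and Mrps18b were counted as mitochondria-specific, since their places in the ribosome have no bacterial counterpart, although they are paralogs of Mrps18c. Mrpl55 was counted among the genes with a bacterial homolog, although its protein is a mitochondria-specific one. It was called lower (log2 difference −0.25). The counts and medians below, for all members and for the large subunit, therefore hold this gene on the wrong side. Of 46 genes with a bacterial homolog 28 were lower and 1 higher, and of 31 mitochondria-specific genes 20 were lower and 1 higher, with a median log2 difference of −0.34 in both. Within the large subunit by structure, 19 of 30 genes with a bacterial homolog were lower (median −0.37) and 11 of 21 mitochondria-specific genes were (median −0.17). Within the small subunit, 9 of 16 with a bacterial homolog were lower and 1 higher (median −0.29), and 9 of 10 mitochondria-specific genes were lower and 1 higher (median −0.51). With Mrps18a and Mrps18b counted among the homologs, a choice added after the values were seen, 30 of 48 genes with a homolog were lower (median −0.35) and 18 of 29 mitochondria-specific genes were (median −0.22). The members lie on 17 chromosomes. All 8 on chromosome 17 were lower, and 8 of 11 on chromosome 11, both chosen for naming after the counts were seen. On chromosome 3 this was 2 of 5, and on chromosome 5 it was 1 of 4. With the GC and length correction Mrpl2, Mrpl14, Mrpl18, Mrpl28, Mrps18a and Mrps34 of chromosome 17 were not called lower, while Mrps10 and Mrps18b were. The share of all genes called lower on each chromosome is not given here, and no chromosome pattern was tested.

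Mitochondrial ribosomal proteins with other symbols gave a similar count, 4 of 5 lower and none higher (median log2 difference −0.29). Gadd45gip1, a large subunit protein also known as CRIF1, was at 12.1 FPKM in Max-KO and 19.7 FPKM in WT (log2 difference −0.66). Aurkaip1 (−0.31), Ptcd3 (−0.29) and Chchd1 (−0.28), all of the small subunit, were lower as well, but not after rescaling to TPM (limma adjusted p of 0.129 to 0.347). Dap3, a GTP-binding small subunit protein, was at 81.1 FPKM in Max-KO and 74.8 FPKM in WT and was not called (log2 difference 0.12, limma adjusted p = 0.168).

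Of 27 factors that assemble the mitochondrial ribosome, 10 were lower and 1 higher (median log2 difference −0.13), against 23.2% and 43.0% of all genes. Rbfa, which matures the small subunit RNA, was at 20.4, 18.6 and 20.0 FPKM in Max-KO and 40.0, 38.6 and 41.6 FPKM in WT (log2 difference −0.99 ± 0.064 SE, limma adjusted p = 2.14e-05). Mtg1, a GTPase of large subunit assembly, was at 8.54 FPKM in Max-KO and 17.0 FPKM in WT (log2 difference −0.92). Mterf3, known from mice as a brake on mitochondrial transcription and a factor of large subunit assembly, was at 34.9, 35.9 and 35.5 FPKM in Max-KO and 18.2, 19.3 and 16.7 FPKM in WT (log2 difference 0.93 ± 0.069 SE). Rbfa, Mtg1 and Mterf3 kept their calls under every setting tried.

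Among 16 mitochondrial translation factors, 6 were lower and 1 higher (median log2 difference −0.14), against 23.2% and 43.0% of all genes tested. The ribosome recycling factor Mrrf was at 6.35 FPKM in Max-KO and 12.6 FPKM in WT (log2 difference −0.90). The elongation factor Tufm was at 68.4 FPKM in Max-KO and 104 FPKM in WT (log2 difference −0.59), and its exchange factor Tsfm at 32.8 and 47.0 FPKM in Max-KO and WT (log2 difference −0.51). The initiation factor Mtif2 was the one called higher (log2 difference 0.24, limma adjusted p = 0.0285), which was no longer called when Max-KO 1, Max-KO 3 or WT 3 was left out (limma adjusted p of 0.0545 to 0.086). Of 7 mitochondrial transcription genes Tefm was lower (log2 difference −0.42) and Mterf1a higher (0.62), with a median of −0.037. After rescaling to TPM the medians of the assembly, translation and transcription lists were 0.071, 0.058 and 0.16, against 0.41 for all genes tested. Relative to the all-gene median of each setting these lists stood at −0.34, −0.35 and −0.25 with TPM and −0.34, −0.35 and −0.24 as reported.

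The RNAs that the mitochondrial ribosome is built on were called in opposite directions. The small subunit RNA mt-Rnr1 was at 132, 170.2 and 135 FPKM in Max-KO and 247, 287 and 214 FPKM in WT (log2 difference −0.77 ± 0.14 SE, limma adjusted p = 0.00212). The large subunit RNA mt-Rnr2 was at 273, 333 and 291 FPKM in Max-KO and 153, 167 and 91.8 FPKM in WT (log2 difference 1.16 ± 0.23 SE, limma adjusted p = 0.00494). The groups did not overlap for either RNA, and both calls held under every setting. Both RNAs come from the same strand of the mitochondrial genome, and the sources used here do not say how far the library preparation kept each of them. Of 13 mitochondrial messenger RNAs, 4 were higher (mt-Nd5 1.58, mt-Nd6 1.49, mt-Nd4 0.71 and mt-Nd2 0.69 on the log2 scale) and mt-Atp8 was lower (−0.46), with a median of 0.59. That median was 0.28 without WT 3 and −0.18 with the GC and length correction, against 0.19 for all genes tested in both. With that correction mt-Nd4 and mt-Nd2 were not called (0.073 and 0.085), while mt-Nd5 and mt-Nd6 kept their calls under every setting. Of all genes tested, 43.0% were called higher and 23.2% lower. mt-Atp8 was no longer called when any library but WT 3 was left out (limma adjusted p of 0.0718 to 0.103).

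Of the cytosolic counterparts, 78 of 83 ribosomal protein genes were lower and 3 higher, with a median log2 difference of −0.67, and 13 were lower by 2-fold or more. Rplp0, the base of the cytosolic ribosome's stalk, was at 940.0 FPKM in Max-KO and 2712 FPKM in WT (log2 difference −1.52). The 3 that rose were the paralogs Rpl39l (3.46) and Rpl10l (2.61) and Rpl7l1 (0.25, but 0.00015 with median-ratio scaling). The whole list's share of the library was 14.2 ± 0.436% in Max-KO and 20.1 ± 1.18% in WT (SD, n = 3 each). With quantile normalization 43 were lower and 11 higher, against 33.0% and 28.8% of all genes tested. The median of −0.13 then lay above that of the mitochondrial ribosomal protein genes (−0.36), the reverse of the order as reported. Quantile normalization gives each library the same value at the same rank, which limits the difference that the most abundant genes can show. The median cytosolic gene was at 1005 FPKM in Max-KO and 1809 FPKM in WT, so this setting cannot show which list fell more. Of 86 nuclear genes of the respiratory chain and ATP synthase 83 were tested, and 30 were lower and 19 higher (median −0.094). Shares over all genes tested were 23.2% lower and 43.0% higher. Atp5g2, which encodes a copy of the ATP synthase ring subunit, was at 17.9 FPKM in Max-KO and 34.8 FPKM in WT, and Cox7b2, a paralog of a cytochrome c oxidase subunit, at 4.08 FPKM in Max-KO and 0.26 FPKM in WT. After rescaling to TPM the respiratory chain list had 12 lower and 33 higher of 83, with a median of 0.12. All genes tested were then 16.1% lower and 53.8% higher, with a median of 0.41. Relative to the all-gene median the list stood at −0.29 with TPM and −0.3 as reported. No test between these lists and the mitochondrial ribosomal protein genes was made.

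A total of 18 members have a protein-coding neighbour on the other strand whose start lies within 1000 bases upstream, a head-to-head pair. Pairs on opposite strands whose starts overlap, such as Mrpl46 and Mrps11, were not counted as having such a neighbour. Of these 18 neighbours 7 were lower, 4 higher and 7 not called (median log2 difference −0.21). Among protein-coding genes tested, 25.2% were lower and 42.1% higher. Among the 11 pairs whose member was lower, the neighbour was lower in 5 and higher in 3. The pair furthest apart was Mrps18b and Ppp1r10, whose GENCODE starts are 45 bases from each other. Ppp1r10, a regulatory subunit of protein phosphatase PP1 in the nucleus (chromosome 17, 35916434 to 35932283, plus strand), was at 38.9, 38.6 and 37.0 FPKM in Max-KO and 12.8, 12.9 and 14.5 FPKM in WT (log2 difference 1.44 ± 0.07 SE, limma adjusted p = 7.46e-06), while Mrps18b was lower. Both calls held under every setting tried.

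Mrpl37 with Cyb5rl (log2 differences −0.22 and 0.87) and Mrps34 with Eme2 (−0.54 and 0.66) also lay on opposite sides. The call of Cyb5rl was lost without Max-KO 1, Max-KO 2, WT 2 or WT 3 (limma adjusted p of 0.054 to 0.0629), and that of Eme2 without Max-KO 2 or Max-KO 3 (0.0581 and 0.066). With the GC and length correction Mrpl37 and Mrps34 were not called (−0.11 and −0.092), nor was Mrpl37 with TPM. Lower on both sides were Mrps12 with Sars2, the mitochondrial seryl-tRNA synthetase (−0.71 and −0.31), and Mrps27 with Ptcd2 (−0.51 and −0.51). Mrpl40 with Hira, Mrpl2 with Klc4 and Mrpl54 with Apba3 were lower on both sides too. With the GC and length correction 3 of these pairs lost a call: Sars2 (0.067), Mrpl2 with Klc4 (−0.065 and −0.13), and Mrpl54 with Apba3 (−0.19 and 0.089). After rescaling to TPM Sars2 (−0.10) and Apba3 (−0.15) were not called. Fau, whose product includes a cytosolic ribosomal protein, was at 643 FPKM in Max-KO and 1082 FPKM in WT (log2 difference −0.74), while its neighbour Mrpl49 was not called (−0.13). Members with and without such a neighbour had medians of −0.36 and −0.34. In all, 42 members overlap another annotated gene, 26 of them a protein-coding one, and 36 one on the other strand. The sources used here do not say if strand was kept, so it is unknown whether reads from the overlapping stretches were assigned to the right gene.

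**Figure D5:**
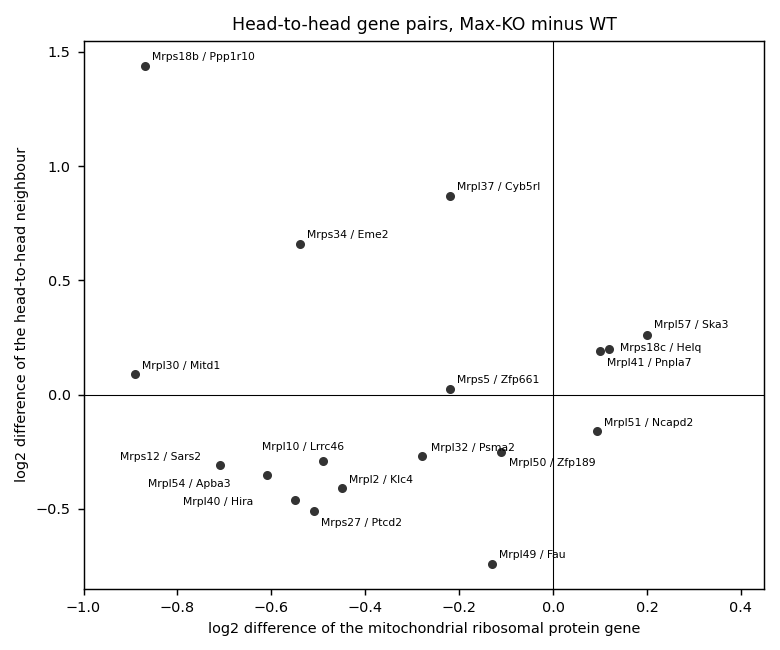
Log2 difference (Max-KO minus WT) of the 18 members with a head-to-head neighbour (x axis) against that of the neighbour (y axis). Mrps18b and Ppp1r10 lie furthest into the upper left, at −0.87 and 1.44.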

How the data were processed

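FPKM values of 6 libraries were deposited by the authors, 1 value per gene and library; the labels' protocols state Trizol extraction and an Illumina TruSeq RNA kit. Per the submitters' processing notes, HISAT2 2.1.0, RSEM, DESeq 1.26.0 and FastQC were used with build GRCm38.p6, in roles and an order not given here. Symbols, biotypes and coordinates came from GENCODE M21, which holds 55450 of 55536 Ensembl identifiers. Another 1153 assembled loci were left out of the tests.

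Genes whose mean reached 1 FPKM in either group were fitted with limma 3.58.1 (R 4.3.3; trend and robust, 2-sided) as log2(FPKM + 1), with genotype as the only factor. Calls used a Benjamini-Hochberg adjusted p under 0.05 over all 14661 genes, which is the adjusted p given throughout. Differences (Max-KO minus WT) are on that log2 scale, which understates the change of low genes. Counts, medians and motif searches used Python 3.11.15, numpy 2.4.6 and pandas 2.3.3. The fit was tested on simulated data.

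FPKM files state no depth. Low values of genes with 1 transcript lay within 0.15 of a whole multiple of 1 step per library in 87.5% to 90.3% of cases. The steps, chosen to bring these values closest to whole multiples, gave the estimated fragments, so 1 FPKM over 1 kb stood for about 20.8 to 28.4 fragments.

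The members and the gene lists were chosen with earlier results of these data known. Named members are, per subunit, the 5 lowest and 2 highest called log2 differences, the 3 highest in level, all that rose and 10 picked by role. Each related list gave up to 3 called members and 1 in the opposite direction. Others were named after their values were seen. Marker lists hold 5 embryonic stem cell, 4 primitive endoderm, 5 fibroblast, 4 trophoblast, 4 neural and 2 germ cell genes. Alternatives changed the pseudocount, filter, scaling, variance moderation, GC and length, libraries used, replicate block and subunit assignment.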

Additional observations from a re-analysis of the deposited data

How the results depend on the processing

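Counts below are genes called lower or higher in Max-KO, and the cause of each change was not tested. The shares over all genes tested moved with the setting as well. As reported they were 23.2% lower and 43.0% higher, with TPM 16.1% and 53.8%, and with median-ratio scaling 33.9% and 30.7%. With quantile normalization they were 33.0% and 28.8%, and with the GC and length correction 22.4% and 43.1%. Mitochondrial ribosomal protein genes were 49 lower and 2 higher as reported, and 34 to 63 lower under the alternatives. The higher count was 0 with median-ratio scaling, 16 with TPM, 7 with the GC and length correction, 4 after quantile normalization and 1 to 4 with 1 library left out, when 44 to 49 were lower. For the large subunit the higher count was 11 with TPM, 5 with the GC and length correction, 2 after quantile normalization and 0 to 1 with 1 library left out, and for the small subunit 5 with TPM, 0 with median-ratio scaling and 1 to 3 with 1 library left out. Their lower counts were 25 to 28 and 19 to 21 with 1 library left out.

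With TPM, cytosolic ribosomal proteins had 5 higher, mitochondrial mRNA 7 higher and 0 lower, mitochondrial transcription 2 higher, translation factors 3 lower and 5 higher, assembly factors 6 lower and 5 higher, ribosome proteins with other symbols 1 lower and 1 higher, and respiratory chain genes 12 lower and 33 higher. With median-ratio scaling, mitochondrial mRNA had 2 lower, transcription 4 lower, translation factors 11 lower and 0 higher, and respiratory chain genes 52 lower and 8 higher. With quantile normalization, cytosolic ribosomal proteins had 43 lower and 11 higher, mitochondrial mRNA 0 lower and 8 higher, transcription 4 lower, translation factors 0 higher, assembly factors 16 lower and respiratory chain genes 30 higher. With the GC and length correction, mitochondrial mRNA had 4 lower and 2 higher, transcription 0 higher, translation factors 0 higher, assembly factors 4 higher and ribosome proteins with other symbols 1 higher. Without trend and robust moderation, mitochondrial mRNA had 0 lower and assembly factors 2 higher. Without the filter, mitochondrial mRNA had 0 lower and translation factors 0 higher.

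With 1 library left out, lower and higher counts were 76 to 78 and 3 to 4 for cytosolic ribosomal proteins, 0 to 1 and 4 to 6 for mitochondrial mRNA, 1 to 2 and 1 to 2 for transcription, 4 to 5 and 0 to 2 for translation factors, 9 to 12 and 1 to 2 for assembly factors, 4 and 0 to 1 for ribosome proteins with other symbols, and 27 to 30 and 14 to 22 for respiratory chain genes. Of the called members, related genes and neighbours checked, log2 differences changed sign in Mrpl52 (0.19 with GC and length, 0.055 with quantile normalization, 0.039 with TPM), Mrpl44 (0.014 with TPM), Mrps31 (0.0044 with TPM), Mrpl4, Mrpl18, Mrpl28 and Mrpl55 (0.03, 0.0097, 0.082 and 0.029 with GC and length), Aurkaip1 (0.11 with GC and length), the neighbours Apba3 and Sars2 (0.089 and 0.067 with GC and length) and Mtif2 (−0.0062 with median-ratio scaling). Mrpl58, not called as reported, was called higher with GC and length (0.19) and TPM (0.14).

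Same-numbered libraries deviated together little across genes (r of −0.000616, 0.016 and 0.0855), and not every library correlated best with its own number. The value of 0.0855, for the libraries numbered 3, was the highest of all pairs. A correlation over all genes cannot exclude a shared batch that touches few genes. With the replicate block, 46 members were lower and 2 higher, and mitochondrial transcription had 2 lower. Estimated depth was 20.8 to 28.4 M fragments, which limits the precision of genes with low FPKM or short transcripts.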
